A study of Mus musculus with 12 samples.

Results

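The genes described here carry out or directly govern de novo fatty acid synthesis, the building of fatty acids from acetyl-CoA in the cytosol. They were chosen by name for their roles in the pathway, with earlier results of these data already known. The 10 genes are Acaca, Fasn, Acly, Acss2, Srebf1, Thrsp, Me1, Slc25a1, Mid1ip1 and Olah, and all 10 are among the 11834 genes of the table.

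In this pathway mitochondrial citrate is carried to the cytosol and cleaved to acetyl-CoA, acetyl-CoA carboxylase turns acetyl-CoA into malonyl-CoA, and fatty acid synthase joins these units with reducing power from NADPH. The lactating mammary gland is among the most lipogenic tissues of the mouse, and much of the medium-chain fatty acid of milk triglyceride is made there. SREBP-1, the protein of Srebf1, and Thrsp, also called Spot 14, are known to promote this synthesis in mammary epithelium, and Olah releases medium-chain fatty acids from fatty acid synthase.

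The study sequenced polyA RNA of mammary glands from Btn1a1-/- mice (KO, 7 libraries) and wild-type mice (WT, 5 libraries), all C57BL/6 in lactation 1, with 1 library per mouse. Btn1a1 encodes butyrophilin, a membrane protein of the secretory cell that takes part in the release of milk fat globules. On day 10 of lactation 5 KO and 3 WT glands were taken, while KO replicates 3 and 4 came from days 8 and 11, and WT replicates 2 and 3 from days 9 and 11. The form of the mutation, whether it acts in all tissues, and the age of the mice are not stated in the labels. They give separate breeding for the mutant and wild-type mice and name 2 diets without saying which mouse ate which, so the genotype cannot be told apart from the line or the diet. Whole glands were used, so fewer cells of a type and less RNA per cell cannot be told apart either.

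Values are log2 CPM, the log2 of a gene's reads scaled to the same total in each library, quantile-normalized by the authors. Because that step gives each rank a fixed value, abundant genes move in steps, and Acaca took only 7 distinct values in the 12 libraries. Total counts were not given, and the depth estimated from the spacing of low values was roughly 23.2 to 34.7 M reads in KO and 17.1 to 30.4 M in WT. The targeted gene matched the labels: Btn1a1 averaged 5.63 ± 0.30 log2 CPM in KO (SD, n = 7) and 11.07 ± 0.09 log2 CPM in WT (SD, n = 5), a log2 change of -5.43 (adjusted p = 5.2e-13, SE 0.13), and 2.31% of the WT level remained. The milk protein genes Csn2 and Wap hold ranks whose value the normalization fixes, so their levels say nothing about the amount of secretory cells.

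The comparison of KO with WT glands asked whether the genes of the pathway differ when Btn1a1 is lost. Acaca, Fasn, Acly, Acss2 and Mid1ip1 fell in KO, to between 45.0% (Fasn) and 69.4% (Mid1ip1) of the WT level. No member rose. At an unadjusted p under 0.05, 7 of the 10 passed, all lower in KO, against 26.6% of all genes. Srebf1, Thrsp, Slc25a1, Me1 and Olah did not pass the test, which was limma with adjustment over all genes and a threshold of 0.05. So 5 of 10 members were called lower, against 4.52% of all genes, and 0 were called higher, against 4.84%. The log2 change was below 0 for 9 of the 10 and its median was -0.67, against -0.03 over all genes. For 3 members, Acaca, Acss2 and Mid1ip1, every KO library lay below every WT library, which held for 2.74% of all genes.

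**Figure D1:**
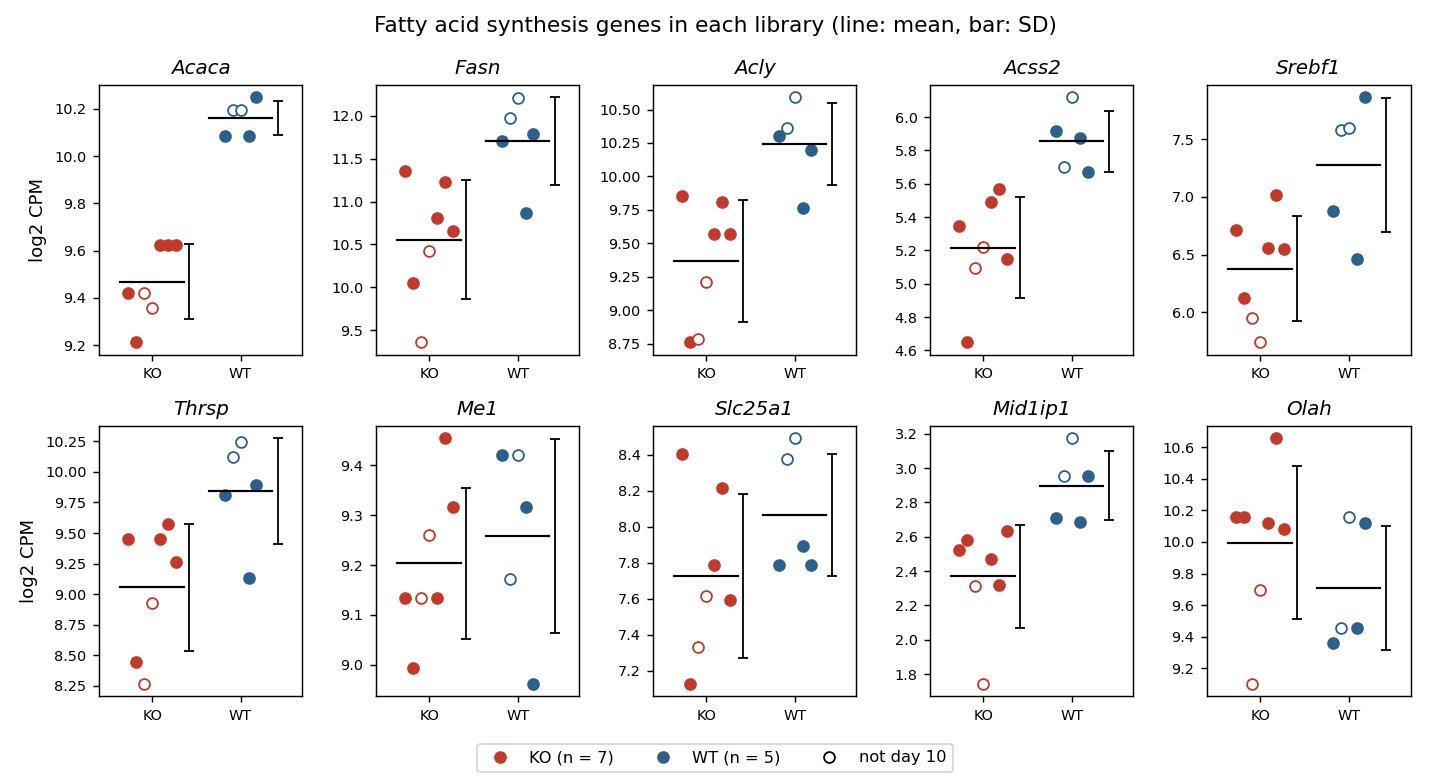
Log2 CPM of each of the 10 genes (vertical axis) in the 7 KO and the 5 WT libraries, 1 point per library, with the mean as a line and the SD as a bar; open points are libraries not taken on day 10, and the vertical axes differ between panels and do not start at 0. The KO and WT points of Acaca, Acss2 and Mid1ip1 do not overlap, those of Fasn and Acly overlap at WT replicate 4, and those of Me1 and Olah are mixed.

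The supply of cytosolic acetyl-CoA begins with Slc25a1, the citrate carrier of the inner mitochondrial membrane. Slc25a1 had between 140 and 339 CPM in KO, with a median of 196 CPM, against 221, 332, 360, 238 and 221 CPM in WT. The groups overlapped, since KO replicates 1 and 6 lay among the WT values and KO replicate 5 at the same level as the lowest of them. The log2 change of -0.34 (adjusted p = 0.334, SE 0.22) did not pass.

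Acly, the ATP citrate lyase that cleaves the exported citrate, had between 433 and 926 CPM in KO, with a median of 761 CPM, against 1263, 1316, 1544, 867 and 1172 CPM in WT. WT replicate 4 stood low within WT, and KO replicates 1 and 6 lay just above it, so that 5 of the 7 KO libraries were below all of WT. Acly fell by 0.88 on the log2 scale (adjusted p = 0.0205, SE 0.21), to 54.5% of the WT level. Without WT replicate 1, 2 or 3 its adjusted p was 0.0527, 0.0522 and 0.0529.

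Acss2, which makes cytosolic acetyl-CoA from acetate, had between 25.1 and 47.4 CPM in KO, with a median of 37.2 CPM, against 60.4, 51.9, 69.5, 58.7 and 50.9 CPM in WT. The groups did not overlap, with a gap of 0.10 log2 between the highest KO and the lowest WT library. Acss2 fell by 0.64 on the log2 scale (adjusted p = 0.0125, SE 0.14), and the call held without any single library, with an adjusted p of at most 0.0359.

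The committed step belongs to Acaca, the main cytosolic acetyl-CoA carboxylase of lipogenic tissue. Acaca had between 593 and 788 CPM in KO, with a median of 686 CPM, against 1086, 1172, 1172, 1086 and 1217 CPM in WT. The groups were well apart, with 0.46 log2 between the highest KO and the lowest WT library, and the spread was small in KO (SD 0.16, n = 7) and the smallest of all members in WT (SD 0.07, n = 5). Acaca fell by 0.69 on the log2 scale (adjusted p = 0.0013, SE 0.09), to 61.9% of the WT level, and stood at rank 14 of the 11834 genes by p. It was called in all 24 alternatives tried, with changes between -0.75 and -0.64.

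Mid1ip1 encodes a small protein that helps acetyl-CoA carboxylase to polymerize and is related to Thrsp. Mid1ip1 was the least abundant member, with between 3.35 and 6.21 CPM in KO and a median of 5.53 CPM, against 6.54, 7.74, 9.01, 6.44 and 7.75 CPM in WT. KO replicate 4 was the lowest library, and the highest KO library lay only 0.05 log2 below the lowest WT library. Mid1ip1 fell by 0.53 on the log2 scale (adjusted p = 0.0343, SE 0.14). The call ended when WT replicate 1, 2, 3 or 5 was left out, with an adjusted p of 0.0527, 0.0766, 0.0869 and 0.0764.

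Chain assembly belongs to Fasn, the multifunctional fatty acid synthase. Fasn had between 656 and 2626 CPM in KO, with a median of 1613 CPM, against 3341, 4018, 4734, 1861 and 3529 CPM in WT. KO replicate 3 was lowest and KO replicates 1 and 6 were highest, both above WT replicate 4, so that 5 of 7 KO libraries were below all of WT. Fasn varied 4.00-fold among the KO libraries, more than any other member, while Acaca varied 1.33-fold.

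Fasn fell by 1.15 on the log2 scale (adjusted p = 0.0464, SE 0.33), the largest change among the members. That call lies near the threshold. It ended without KO replicate 2, 4, 5 or 7, with an adjusted p of 0.0911, 0.0848, 0.0524 and 0.0659, and without WT replicate 1, 2, 3 or 5, with 0.0962, 0.106, 0.106 and 0.0951. It also ended with cyclic loess normalization (adjusted p = 0.0559) and with eBayes without its trend and robust options (adjusted p = 0.0539). The change stayed between -1.36 and -0.95 over the 12 fits that each left out a library.

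Olah, the thioesterase that ends chain growth early, had between 550 and 1613 CPM in KO, with a median of 1114 CPM, against 656, 702, 1141, 702 and 1114 CPM in WT. The range of KO enclosed that of WT, with KO replicate 3 lowest and KO replicate 6 highest of all 12 libraries. Every KO library except replicate 3 lay above WT replicates 1, 2 and 4. Olah was the one member with a log2 change above 0, at 0.29 (adjusted p = 0.460, SE 0.23), which did not pass. It was 0.59 in the day 10 libraries and -0.41 at the other days. The latter sets KO libraries of days 8 and 11 against WT libraries of days 9 and 11, so it also holds differences of day.

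Me1, the cytosolic malic enzyme, yields NADPH for chain assembly. Me1 had between 510 and 702 CPM in KO, with a median of 562 CPM, against 686, 577, 686, 638 and 499 CPM in WT. The values were intermixed, and both the lowest and the highest of the 12 libraries lay close to the other group. The log2 change was -0.06 (adjusted p = 0.772, SE 0.10).

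Srebf1 encodes a transcription factor that is known to drive genes of fatty acid synthesis. Its isoforms, which start at different promoters, are summed in the table. Srebf1 had between 53.4 and 129.7 CPM in KO, with a median of 93.6 CPM, against 118, 191, 194, 88.1 and 233 CPM in WT. WT replicate 4 was low again, and 4 of the 7 KO libraries lay above it.

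The log2 change of Srebf1 was -0.90 (adjusted p = 0.0583, SE 0.27), which missed the threshold. It passed without KO replicate 6 (adjusted p = 0.0311), without WT replicate 4 (adjusted p = 0.0243) and in the authors' deposited table (adjusted p = 0.0439).

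Thrsp, the nuclear protein Spot 14, is most abundant in lipogenic tissue. Thrsp had between 308 and 761 CPM in KO, with a median of 613 CPM, against 898, 1114, 1217, 562 and 951 CPM in WT. Of the KO libraries 4 lay above WT replicate 4, and all 7 lay below the other WT libraries. The log2 change of -0.79 (adjusted p = 0.0710, SE 0.26) missed the threshold, and it passed with an adjusted p of 0.0471 when KO replicate 6 was left out and of 0.0347 when WT replicate 4 was.

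The promoters of Fasn, Thrsp and Acly are shown because these 3 genes varied most alike among the KO libraries, as given below. The 250 bases before each start, from RefSeq (GRCm38.p6, all on the minus strand), are printed 5′ to 3′, and capitals mark the box CCAAT of the factor NF-Y, or ATTGG, which is the same box on the other strand. The windows are chr11:120824548-120824797 for Fasn, chr7:97417551-97417800 for Thrsp and chr11:100528001-100528250 for Acly.
Fasn: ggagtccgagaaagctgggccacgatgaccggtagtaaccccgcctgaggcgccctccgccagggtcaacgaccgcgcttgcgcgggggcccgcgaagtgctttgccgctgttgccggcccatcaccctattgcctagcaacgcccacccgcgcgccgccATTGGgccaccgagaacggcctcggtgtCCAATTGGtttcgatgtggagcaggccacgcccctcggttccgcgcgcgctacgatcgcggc
Thrsp: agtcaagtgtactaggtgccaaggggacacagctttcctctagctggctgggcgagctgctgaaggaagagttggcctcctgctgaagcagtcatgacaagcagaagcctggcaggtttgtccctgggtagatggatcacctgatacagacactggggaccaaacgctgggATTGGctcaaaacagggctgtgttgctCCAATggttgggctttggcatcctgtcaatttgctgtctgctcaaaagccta
Acly: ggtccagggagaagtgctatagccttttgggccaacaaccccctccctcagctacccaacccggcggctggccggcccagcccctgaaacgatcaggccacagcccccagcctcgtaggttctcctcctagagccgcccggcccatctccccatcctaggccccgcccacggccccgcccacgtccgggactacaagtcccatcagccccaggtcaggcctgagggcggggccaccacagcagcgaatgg

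Fasn and Thrsp each held the box on both strands within the last 90 bases before the RefSeq start. Counted from the start, the matches in Fasn began at positions -90, -62 and -59, and the last of these overlaps the one before it. In Thrsp they began at -79 and -52. By GENCODE M21 the Thrsp gene spans chr7:97412938-97417730, so both of its boxes lie inside the gene, downstream of its outermost start. The Acly window printed holds none, and its only match began at position 38 past the start.

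The same search, on both strands and with the 50 bases past the start included, was made for all 10 members, which have 13 promoters in RefSeq. The box CCAAT was found for 7 of the 10 genes (8 of the 13 promoters), against 37.3% of the 11362 promoters of the genes in the table. The windows of Acaca, Mid1ip1 and Olah held no match. Each lies inside its gene by GENCODE M21, downstream of the outermost start, so the bases before that start were not searched. For Acaca the window is chr11:84195188-84195437 and the gene starts at 84129672. Some windows with a match, such as that of Thrsp, also lie partly inside the gene. The sterol regulatory element TCACNCCAC had 0 matches, against 1.16% of those promoters, and the E-box CACGTG had 1, in Slc25a1, against 9.98%. With a share as small as 1.16%, 0 matches in 13 promoters is the likely outcome, so it shows no lack of such elements. The GC box GGGCGG was found for 6 genes (7 of the 13 promoters), against 62.9% of promoters. A match is a run of letters in this window and no evidence of binding, and 5 bases recur often.

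By GENCODE M21 (mm10), 4 of the 10 members lie on chromosome 11, namely Acaca (chr11:84129672-84401651), Acly (chr11:100476353-100528000), Fasn (chr11:120805846-120824547) and Srebf1 (chr11:60199089-60222581). Acss2 (chr2:155517948-155585724) and Olah (chr2:3341982-3397210) lie on chromosome 2, and Thrsp, Me1, Slc25a1 and Mid1ip1 on chromosomes 7, 9, 16 and X. None lies on chromosome 13, which holds Btn1a1 (chr13:23456992-23465901).

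Compared per kilobase of exon, the levels ran over a wide range. In KO the order was Olah (603 CPM per kb), Thrsp (439), Me1 (164), Fasn (164), Acly (149), Slc25a1 (133), Acaca (74.9), Srebf1 (20.2), Acss2 (9.92) and Mid1ip1 (2.60). In WT it was Thrsp (743 CPM per kb), Olah (488), Fasn (348), Acly (267), Me1 (171), Slc25a1 (165), Acaca (121), Srebf1 (38.3), Acss2 (15.3) and Mid1ip1 (3.71). In KO the neighbours Olah and Thrsp, and the run from Me1 to Slc25a1, differed by less than the larger SD over libraries, and in WT this was so for Fasn and Acly and for Me1 and Slc25a1. The CPM of the 10 members summed to between 3464 and 7648 in KO, with a median of 5827, and to between 6107 and 11125 in WT, with a median of 8994.

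The members were also compared with each other within a library. Olah minus Fasn, a difference of log2 CPM within a library that scaling to a common total does not alter, although quantile normalization can, averaged -0.56 ± 0.41 in KO (SD, n = 7) and -1.998 ± 0.46 in WT (SD, n = 5). It ran from -1.20 to 0.11 in KO and from -2.52 to -1.41 in WT, so the groups did not overlap, and Olah was 2.71-fold higher relative to Fasn in KO. This ratio was chosen after the values were seen and was not tested. Me1 minus Fasn averaged -1.35 ± 0.64 in KO and -2.45 ± 0.55 in WT, with overlap, and Acaca minus Fasn -1.08 ± 0.63 in KO and -1.54 ± 0.47 in WT, with wide overlap.

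**Figure D2:**
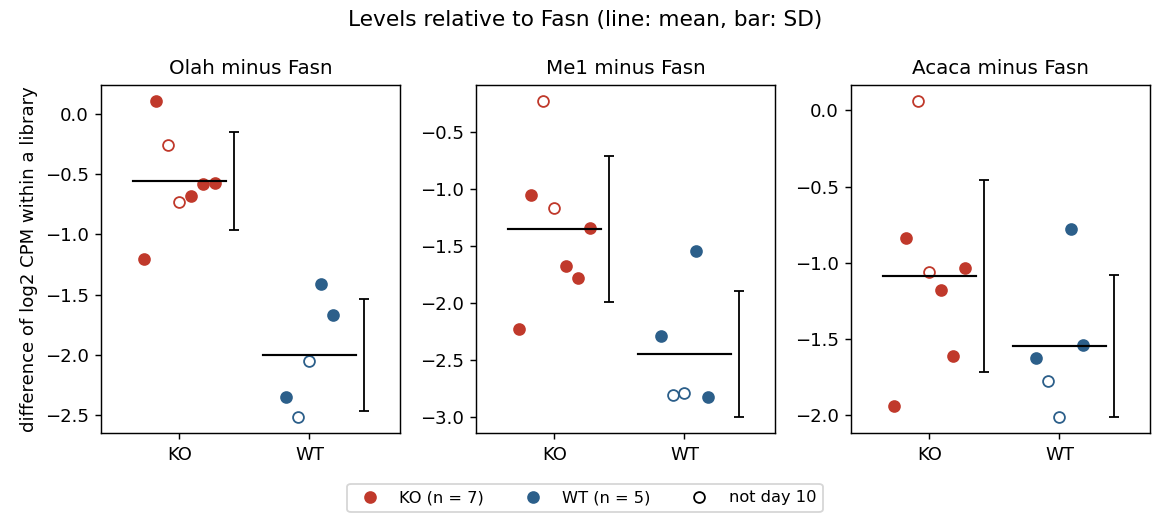
Difference of log2 CPM between Olah, Me1 or Acaca and Fasn within each library (vertical axis) in the 7 KO and the 5 WT libraries, 1 point per library, with the mean as a line and the SD as a bar; open points are not day 10. For Olah all 7 KO points lie above all WT points, while for Me1 4 of 7 do and for Acaca 1 of 7.

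Several of these values depended on the lactation days included. In the 8 libraries of day 10 alone, Acaca kept its call (log2 change -0.64, SE 0.13, adjusted p = 0.0304), and the other calls ended. The changes were then -0.58 for Acss2 (adjusted p = 0.123), -0.57 for Acly (adjusted p = 0.209), -0.63 for Fasn (adjusted p = 0.285) and -0.28 for Mid1ip1 (adjusted p = 0.208). Acaca and Acss2 thus kept nearly the size they had in all 12 libraries, and Fasn did not.

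The KO libraries of days 8 and 11 were among the lowest for Fasn, Srebf1 and Mid1ip1, and the WT libraries of days 9 and 11 were the 2 highest of WT for Fasn, Acly and Thrsp. In a fit with a term for this difference, added after the data were seen, the KO effect at the other days minus that at day 10 was -1.57 log2 for Fasn (adjusted p = 0.415, SE 0.56), -0.91 for Acly (adjusted p = 0.460, SE 0.39), -0.75 for Mid1ip1 (adjusted p = 0.354, SE 0.24) and -0.17 for Acaca (adjusted p = 0.810, SE 0.20). It was -1.27 for Srebf1 (SE 0.47, adjusted p = 0.421), -1.21 for Thrsp (SE 0.45, adjusted p = 0.421), -0.96 for Slc25a1 (SE 0.39, adjusted p = 0.448) and -0.997 for Olah (SE 0.38, adjusted p = 0.421). At the other days 1 KO library each of days 8 and 11 stood against 1 WT library each of days 9 and 11. The effect there thus also holds lactation day and single mice, which cannot be told apart from genotype. None of the 11834 genes passed the test of this term after adjustment. At an unadjusted p under 0.05 there were 1233 genes (10.4%), and 7 of the 10 members were among them, all except Acaca, Acss2 and Me1. With day as a covariate in all 12 libraries the same 5 members were called, with an adjusted p of 0.0015 for Acaca and 0.0382 for Fasn.

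**Figure D3:**
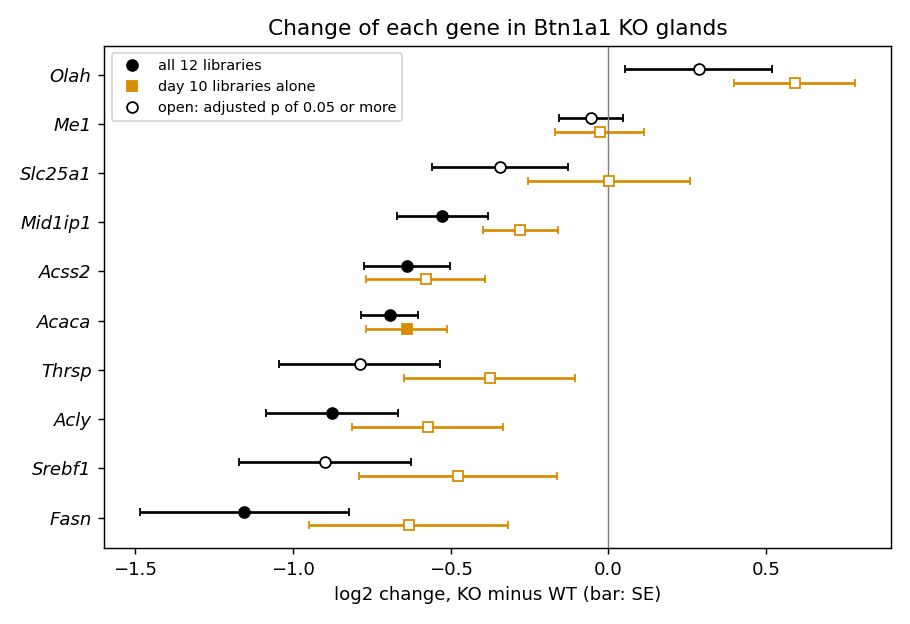
Log2 change of each member in KO against WT (horizontal axis, KO minus WT, bars are SE) in all 12 libraries (circles) and in the 8 day 10 libraries alone (squares); filled symbols have an adjusted p under 0.05. Acaca and Acss2 lie at about the same place in both, and Fasn, Srebf1, Thrsp, Acly, Mid1ip1 and Slc25a1 lie nearer to 0 in the day 10 libraries, while Olah lies farther above 0, at 0.59 against 0.29.

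Among the 7 KO libraries Fasn, Acly and Thrsp varied together. Of the 45 pairs of members 43 had a positive Pearson r, with a median of 0.661, and the same share for pairs of other genes was not computed. In 3 pairs r passed an exact permutation test adjusted over the 45 pairs, and in 0 pairs did Spearman's rho. Fasn and Thrsp had r = 0.948 (exact permutation p = 0.000794, adjusted p = 0.0268) and rho = 0.937 (exact permutation p = 0.00476, adjusted p = 0.0607), and r = 0.957 without the 2 libraries farthest from the median of Fasn. Fasn and Acly had r = 0.943 (exact permutation p = 0.00119, adjusted p = 0.0268) and rho = 0.955 (exact permutation p = 0.00318, adjusted p = 0.0607), and r = 0.961 without those 2 libraries. Acly and Thrsp had r = 0.976 (exact permutation p = 0.00318, adjusted p = 0.0476) and rho = 0.882 (exact permutation p = 0.0115, adjusted p = 0.0791), and r = 0.917 without 2 libraries.

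KO replicates 2 and 3 were the lowest and KO replicates 1 and 6 among the highest for Fasn, Acly and Thrsp alike. Acaca and Fasn were less close, with r = 0.484 (exact permutation p = 0.279, adjusted p = 0.391) and rho = 0.524 (exact permutation p = 0.238, adjusted p = 0.412), and r = 0.372 without 2 libraries. Mid1ip1 had an r between -0.28 and 0.54 with the other members. The 7 libraries differ in depth and in lactation day, and in the 5 KO libraries of day 10 alone a correlation was not computed because they are fewer than 6.

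**Figure D4:**
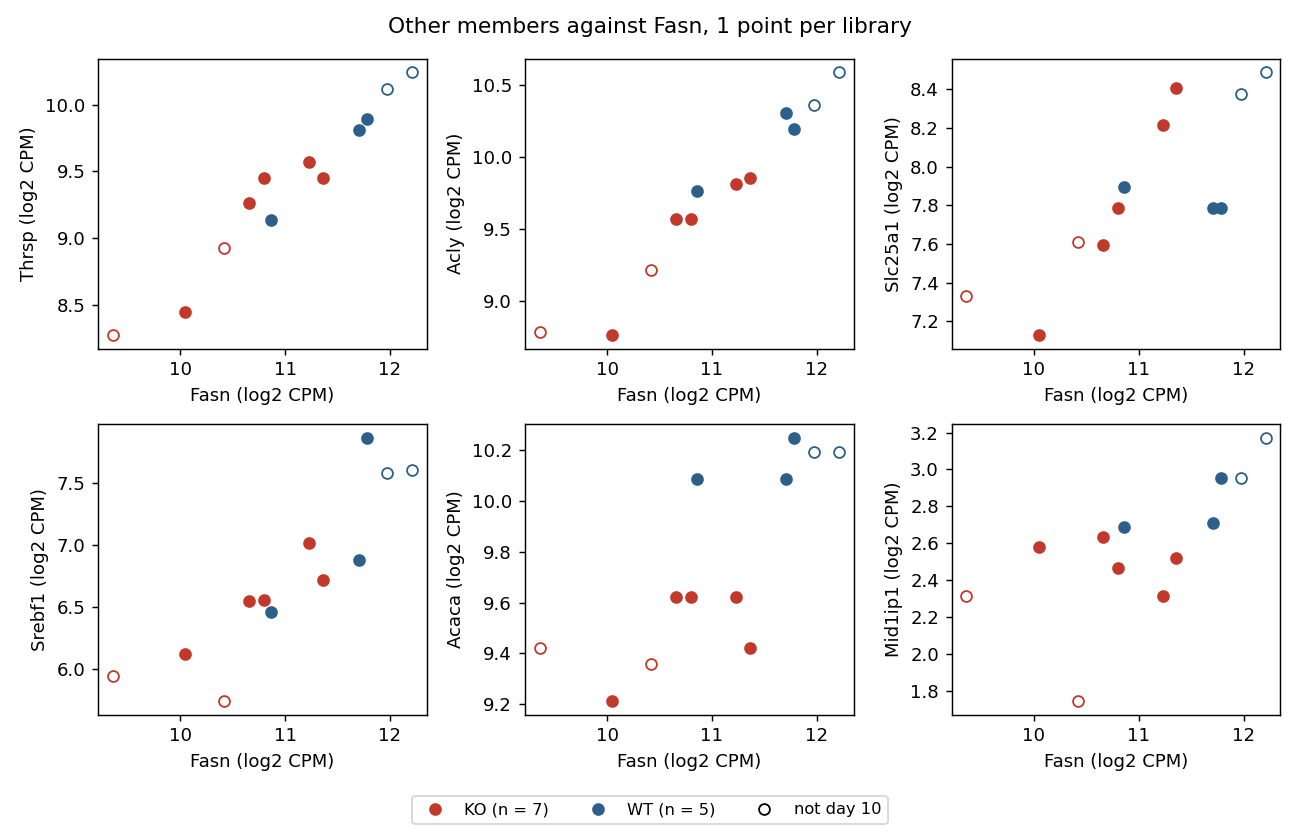
Log2 CPM of Thrsp, Acly, Slc25a1, Srebf1, Acaca and Mid1ip1 (vertical axes) against log2 CPM of Fasn (horizontal axis), 1 point per library, 7 KO and 5 WT, with open points for libraries not taken on day 10. Thrsp and Acly follow Fasn closely in both groups, whereas the KO and WT points of Acaca stay apart at any level of Fasn.

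Likeness was also measured against the whole table, as Pearson's r of log2 values after each group's mean was taken off, over the 12 libraries and 9746 genes. Closest to Fasn were Thrsp (r = 0.961), Acly (r = 0.950) and Fads1, a desaturase of polyunsaturated fatty acids (r = 0.937). Slc25a1 took place 90 and Srebf1 place 142, and Acaca place 1210. Closest to Acaca were Tsta3 (r = 0.952), an enzyme of GDP-fucose synthesis, Usp35 (r = 0.947), a deubiquitinase, and Acsl1 (r = 0.939), which activates long-chain fatty acids. Closest to Srebf1 were Osbpl1a (r = 0.953), an oxysterol-binding protein relative, Hdhd2 (r = 0.946) and Ppat (r = 0.944), the first enzyme of purine synthesis. The genes named as closest hold the highest of 9746 values of r over 12 libraries. Whether chance alone would give values as high was not tested.

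The other genes of the pathway were followed as lists. Of 19 genes of acetyl-CoA and citrate supply 0 were called higher and 3 lower in KO, against 9.36% of all genes called in either direction, and the median log2 change was -0.22. Pdhx, a subunit of the pyruvate dehydrogenase complex, fell by 0.46 (adjusted p = 0.0157, SE 0.10). The glucose transporter Slc2a1 fell by 0.42 (adjusted p = 0.0426, SE 0.12) and the hexokinase Hk2 by 0.46 (adjusted p = 0.0419, SE 0.13). The call of Slc2a1 ended without KO replicate 1, 2, 3 or 4 or WT replicate 1, 2, 3 or 5 (adjusted p of up to 0.106), and that of Hk2 without KO replicate 1, 2, 3, 5 or 7 or WT replicate 1, 2, 3 or 5 (up to 0.104). That of Pdhx held without any single library.

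Of 10 genes of NADPH supply other than Me1, 0 were called higher and 2 lower, against 9.36% of all genes called. The median log2 change was -0.20. G6pdx, the first enzyme of the pentose phosphate pathway, averaged 6.54 ± 0.19 log2 CPM in KO (SD, n = 7) and 7.07 ± 0.20 in WT (SD, n = 5), with no overlap, and fell by 0.53 (adjusted p = 0.00903, SE 0.11). Tkt, a transketolase of the same pathway, fell by 0.37 (adjusted p = 0.0256, SE 0.09), and its call ended without WT replicate 1 (adjusted p = 0.0520), 2 (adjusted p = 0.0682) or 3 (adjusted p = 0.0588). The summed CPM of the list ran from 791 to 901 in KO and from 929 to 1162 in WT, without overlap.

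Of 11 genes of mitochondrial fatty acid synthesis and related carboxylases 0 were called higher and 2 lower, against 9.36% of all genes called. The median log2 change was -0.09. Acacb, the acetyl-CoA carboxylase at the outer mitochondrial membrane whose malonyl-CoA restrains fatty acid oxidation, averaged 7.48 ± 0.38 log2 CPM in KO (SD, n = 7) and 8.45 ± 0.13 in WT (SD, n = 5), with no overlap. Acacb fell by 0.98 (adjusted p = 0.00357, SE 0.16), and like Acaca it was called in every alternative tried. Pcca, a subunit of propionyl-CoA carboxylase, fell by 0.46 (adjusted p = 0.0206, SE 0.11), with adjusted p of 0.0562 without WT replicate 2 and 0.0502 without WT replicate 4.

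Of 20 measured genes that use newly made fatty acids, of 21 listed, 1 was called higher and 5 lower, with a median of -0.32. Of all genes 4.84% were called higher and 4.52% lower. The 1 called higher was Elovl7, with a log2 change of 0.39 (adjusted p = 0.0443, SE 0.12). Gpam was called lower, with -0.44 (adjusted p = 0.0204, SE 0.11), and neither was followed through the alternatives. Elovl5, which lengthens polyunsaturated chains, fell by 0.88 (adjusted p = 0.0110, SE 0.18), and Fads2, a desaturase of the same chains, fell by 0.63 (adjusted p = 0.0178, SE 0.15). Agpat1, which adds an acyl chain in glycerolipid assembly, fell by 0.55 (adjusted p = 0.00919, SE 0.11), and Elovl1, which lengthens very long chains, fell by 0.40 (adjusted p = 0.0123, SE 0.09). Scd1, the stearoyl-CoA desaturase, picked once its value was known, had a log2 change of -0.10 (adjusted p = 0.808, SE 0.22).

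Of 30 regulators of lipogenesis 0 were called higher and 2 lower, with a median of -0.13. That is no larger a share than the 9.36% of all genes called. Mbtps2, a protease that frees SREBP from the membrane, fell by 0.38 (adjusted p = 0.0268, SE 0.10), and Mtor, a nutrient-sensing kinase, fell by 0.28 (adjusted p = 0.0460, SE 0.08). The call of Mbtps2 ended without WT replicate 1 (adjusted p = 0.0646), 3 (adjusted p = 0.0699) or 4 (adjusted p = 0.0561), and that of Mtor without any library other than WT replicates 4 and 5 (up to 0.123). Insig1, which holds SREBP in the endoplasmic reticulum and is itself an SREBP target, picked once its value was known, had a log2 change of -0.69 (adjusted p = 0.0893, SE 0.24).

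Of 15 genes that control acetyl-CoA carboxylase 1 was called higher and 1 lower, with a median of -0.02, a share near the 9.36% of all genes called. Prkaa2, a catalytic subunit of the kinase AMPK that inactivates the carboxylase, fell by 0.37 (adjusted p = 0.0326, SE 0.10). Its call ended without KO replicate 1, 2 or 4 (adjusted p of 0.0626, 0.0636 and 0.0563) and without WT replicate 1, 2, 3 or 4 (adjusted p of 0.0950, 0.0663, 0.0793 and 0.0627). Brca1, a DNA repair protein that also binds phosphorylated acetyl-CoA carboxylase, rose by 1.27 (adjusted p = 0.0306, SE 0.34), with adjusted p of 0.0578 without KO replicate 2 and of 0.0738, 0.0726 and 0.0702 without WT replicates 2, 3 and 5. It was not called in the authors' deposited table (adjusted p = 0.0575), and at day 10 alone its change was 0.84 (adjusted p = 0.229). Brca1 was also near the floor, with 0.89 to 4.32 CPM in KO and 0.60 to 1.12 CPM in WT.

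Of the 15 called genes of these lists that were followed through the alternatives, Acacb alone kept its call both at day 10 and with the skeletal muscle score described below. At day 10 the adjusted p was 0.122 for Elovl5, 0.215 for Fads2, 0.0515 for Agpat1 and 0.110 for Elovl1, and the change of Fads2 was -0.41.

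**Figure D5:**
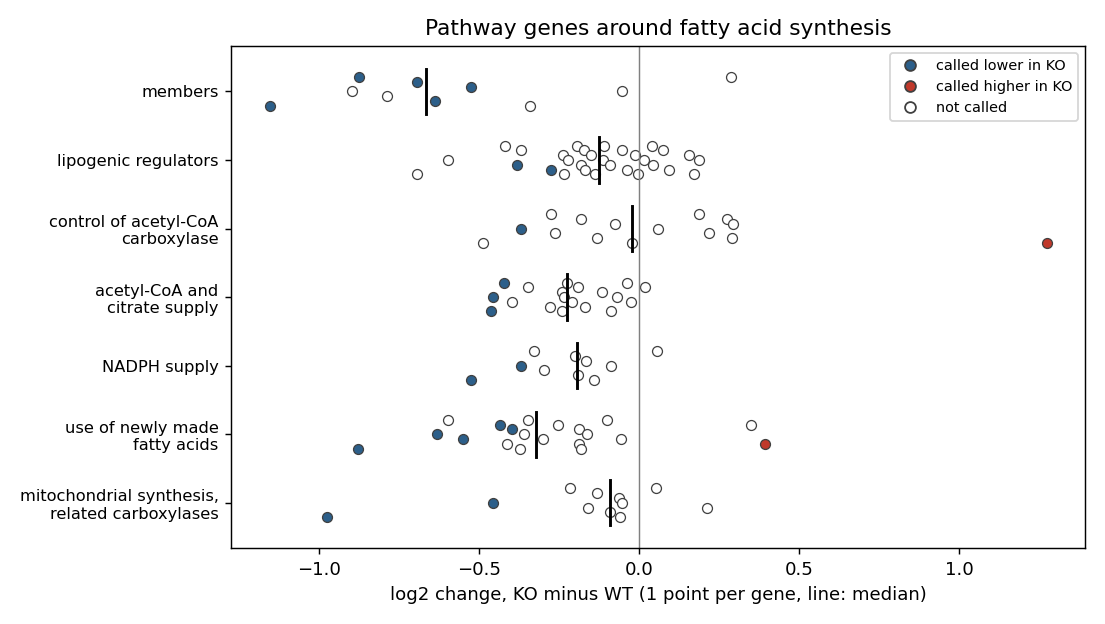
Log2 change in KO against WT (horizontal axis, KO minus WT) of every measured gene in 7 lists around fatty acid synthesis, 1 point per gene with the list median as a line; blue points were called lower in KO, red points higher, and white points were not called. The medians run from -0.67 for the members to -0.02 for the genes that control acetyl-CoA carboxylase.

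Markers of other cell types stand beside these results. Of 12 skeletal muscle markers 0 were called, against 9.36% of all genes, and their median log2 change was 1.23. Their summed CPM ran from 109 to 1772 in KO, where KO replicate 4 was highest, and from 73.2 to 512 in WT. With their score as a covariate, an alternative added after the data were seen, Acaca kept its call (log2 change -0.67, adjusted p = 0.0103) and the other 4 calls ended. The log2 change was then -0.62 for Acss2 (adjusted p = 0.0566), -0.78 for Acly (adjusted p = 0.102), -0.47 for Mid1ip1 (adjusted p = 0.138) and -1.005 for Fasn (adjusted p = 0.181).

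Adipocytes also make fatty acids. Of 10 adipocyte markers 1 was called higher and 0 lower, against 4.84% and 4.52% of all genes. The 1 called was Lep, with a log2 change of 0.95 (adjusted p = 0.00522, SE 0.17). Summed CPM of the markers overlapped, from 592 to 1053 in KO and from 606 to 964 in WT. With that score as a covariate Mid1ip1 lost its call (adjusted p = 0.0623) and Acaca, Acss2, Acly and Fasn kept theirs.

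The counts that follow stand against 4.84% of all genes called higher and 4.52% called lower. Of 10 macrophage markers 4 were called higher and 0 lower, with sums from 86.5 to 160 CPM in KO and from 70.8 to 99.4 CPM in WT. Of 10 basal and myoepithelial markers 6 were called higher and 0 lower, with sums from 582 to 897 CPM in KO and from 517 to 695 CPM in WT. Of 8 endothelial markers 0 were called higher and 1, Kdr, lower. Their part in the changes of the fatty acid synthesis genes was not tested. Of 10 secretory markers 1 was called higher, Krt8 with a log2 change of 0.42, and 1 lower, Muc1 with -0.59. Csn2 and Wap, with an SD of 0 in both groups, could not be called. Csn1s1 and Csn3 had an SD of 0 in WT, so this count says little about the secretory cells. Elf5, a transcription factor of the secretory lineage, had a log2 change of -0.25 (adjusted p = 0.114, SE 0.09).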

How the data were processed

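PolyA RNA libraries of 7 KO and 5 WT mouse mammary glands were analysed, 1 per mouse, grouped by the genotype in the labels. The upstream tools, per the submitters' processing notes, were limma 3.34.5, RSEM 1.3.0, STAR 2.5.2b, Trimmomatic 0.33 and bcl2fastq 2.17. Builds hg19 and mm10 are named there with no role, and the sources used here do not give the annotation. The table of 11834 genes deposited by the authors is in log2 CPM, already quantile-normalized: 67.1% of ranks agree across libraries within 0.01 log2, and each library sums to between 988803 and 988808 CPM. Beside these stand the log2 fold change deposited by the authors, a score (their moderated t), p-value and adjusted p-value. Counts were not given, so no count model was used and depth was estimated only roughly, from the step between low values shared by at least 8 genes.

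The deposited log2 values were fitted by genotype with limma 3.58.1 (R 4.3.3, eBayes with trend and robust options) over all genes, with Benjamini-Hochberg adjustment and calls at an adjusted p under 0.05. The p-values of this fit test the KO minus WT difference against the spread between mice within a genotype. That spread is moderated over all genes and, without a term for day, includes differences of lactation day. The procedure was tested on simulated data with independent normal noise for each gene. Those data held no quantile normalization and no differences of lactation day, so the test does not cover these. Exon lengths come from GENCODE M21 (mm10) and promoters from RefSeq. Pairs of members were tested by exact permutation. Figures were drawn with matplotlib 3.10.9.

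The members, the lists and the tests were chosen with earlier results of these data known. Named were Btn1a1, all members, the called genes of each list (at most 4, by adjusted p) and the 3 genes most like Acaca, Fasn and Srebf1 among genes whose mean is 1 log2 CPM or more. Alternatives were a replicate block, day as a covariate, day 10 alone, other normalizations, a filter on low values, other eBayes options, library weights, a stricter threshold, the authors' statistics, each library left out, and 2 marker scores added after the data were seen. A pseudocount does not apply to log2 values.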

Additional observations from a re-analysis of the deposited data

Results flagged for a closer look

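Mid1ip1 in KO replicate 4, taken on day 11, stood at 1.744 log2 CPM, apart from the other 6 KO libraries, which lay between 2.32 and 2.63 log2 CPM. The gap to the nearest of them was 0.642 of the range of the group, beyond Dixon's limit at the 95% level. It was the 1 outlying library among 20 groups examined, and chance alone gives about 1 in 20. Without KO replicate 4 the call of Mid1ip1 held, with a log2 change of -0.42 (adjusted p = 0.0295, SE 0.11). KO replicate 4 also had the highest sum of skeletal muscle markers, at 1772 CPM, and the part of that in the value was not tested.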

How the results depend on the processing

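The count of 1108 genes called dropped to 268 with day 10 libraries alone (164 higher, 104 lower), to 249 at an adjusted p under 0.01 (151 higher, 98 lower) and to 278 with the skeletal muscle score as a covariate (178 higher, 100 lower). The count of members called lower dropped from 5 to 1 in each of these 3, Acaca each time. Leaving out 1 library gave between 559 (without WT replicate 1) and 1327 (without KO replicate 6) genes and between 2 and 7 members. It was 2 without WT replicate 1, 2 or 3, 3 without WT replicate 5, and 7 without KO replicate 6 or WT replicate 4. Leaving out KO replicate 1 gave 724 genes, and leaving out WT replicate 2, 3 or 5 gave 644, 725 and 696. Cyclic loess gave 653 higher and 481 lower, and 4 members. No alternative called a member higher. With a replicate block 1083 genes and 5 members were called, with Srebf1 in (adjusted p = 0.0249) and Fasn out (adjusted p = 0.0823). The numbers do not pair the mice, since deviations of same-numbered libraries correlated between -0.17 and 0.21. Without the 2 libraries farthest from the median, 39 of 45 pairs had a positive r, against 43. The log2 change turned sign for Slc25a1 at day 10 alone (0.0027), Hdhd2 at day 10 alone (0.0331) and Ppat at day 10 alone (0.199) and with the muscle score (0.0300), none of which was called. Of the other alternatives for single genes 662 kept direction and side of the threshold, 116 fell below it and 9 rose past it. The causes were not tested. Scalings moved the median of all genes by less than 0.1 log2. Day 10 alone and the left-out fits hold fewer libraries. Among the members depth limits Mid1ip1 most, at a few CPM, and quantile normalization limits the abundant members.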

Other observations

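Besides the genes of NADPH supply, whose sums are given above, 2 other pathway lists had summed levels that did not overlap between the groups, although few of their genes were called. Genes that control acetyl-CoA carboxylase summed to between 242 and 294 CPM in KO and to between 309 and 336 CPM in WT. Genes of mitochondrial fatty acid synthesis and related carboxylases summed to between 235 and 385 CPM in KO and to between 437 and 528 CPM in WT. Both sums weigh abundant genes most, such as Prkaa2 and Acacb. The sums of genes that use newly made fatty acids overlapped, from 7800 to 14192 CPM in KO and from 11664 to 15222 CPM in WT. These values were chosen after they were seen and were not tested.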
